A study of Mus musculus with 6 samples.

Results

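The 10 genes examined here mark the hormone-sensing luminal cells of the mammary gland: Esr1, Pgr, Prlr, Foxa1, Areg, Tnfsf11, Cited1, Greb1, Tbx3 and Calca. They were taken by name, and 10 of 10 were found among the 23337 genes listed in the deposited counts. The libraries were made from mammary gland basal epithelial cells, sorted as live cells without CD45 and CD31, with low CD24 and high CD49f. The groups were 4 libraries from mice homozygous for the Vim allele tm1Cba (Vimtm1Cba/tm1Cba, knockout 1 to 4) and 2 from Vimwt/wt mice (wild type 1 and 2). All mice were of strain 129/Sv X C57BL/6 and 15 weeks old, the cells were not passaged (p0), and each library pooled the cells of 2 to 3 mice. The cells came from 2 independent experiments, and a code that reads as a date, carried by the file names, divides the libraries into a first day code (knockout 1, knockout 2 and wild type 1) and a second day code (knockout 3, knockout 4 and wild type 2).

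Estrogen and progesterone act on the mammary gland through a minority of luminal cells that carry their receptors, and these cells pass the signal on to their neighbours by secreted factors. Basal cells, the outer layer of the ducts, lie next to them and receive several of those factors. The gate was meant to collect basal cells, so the label of the gene set names a cell type that the sort was set to leave out. In bulk RNA, fewer cells of a type and less RNA per cell cannot be told apart.

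The sorted libraries carried the defining basal genes at high level. Krt14 lay between 4020 and 4551 CPM (counts scaled to library size, with TMM factors) in knockout libraries, against 3905 and 4563 CPM in wild type. The luminal keratin gene Krt8 lay between 581 and 678 CPM in knockout libraries, against 643 and 742 CPM in wild type. Total counts ran from 25347967 to 31200622 per library. Vim itself had 92.4 to 111 CPM in knockout libraries, against 215 and 241 CPM in wild type.

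The promoters of 5 members are given first, because Pgr, Prlr and Greb1 differed between the day codes, Calca had the widest range of all members and Areg was the most abundant. Each line holds the 250 bases before the RefSeq start site nearest the gene's annotated 5′ end, 5′ to 3′ on the gene's strand, from RefSeq on GRCm38.p6, which has the coordinates of mm10. Capitals mark matches, on either strand, to the nuclear receptor motif AGGTCA or to the cyclic AMP response element TGACGTCA.
Pgr, chr9:8899583-8899832, plus strand: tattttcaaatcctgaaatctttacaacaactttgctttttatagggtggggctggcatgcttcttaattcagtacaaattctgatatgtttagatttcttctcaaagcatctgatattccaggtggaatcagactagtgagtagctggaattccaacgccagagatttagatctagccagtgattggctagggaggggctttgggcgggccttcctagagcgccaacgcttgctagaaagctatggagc
Prlr, chr15:10176988-10177237, plus strand: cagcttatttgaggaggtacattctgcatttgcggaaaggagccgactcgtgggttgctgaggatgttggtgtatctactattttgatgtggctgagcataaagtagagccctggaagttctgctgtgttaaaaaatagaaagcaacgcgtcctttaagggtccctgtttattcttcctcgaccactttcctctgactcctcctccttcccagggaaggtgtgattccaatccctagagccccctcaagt
Greb1, chr12:16800887-16801136, minus strand: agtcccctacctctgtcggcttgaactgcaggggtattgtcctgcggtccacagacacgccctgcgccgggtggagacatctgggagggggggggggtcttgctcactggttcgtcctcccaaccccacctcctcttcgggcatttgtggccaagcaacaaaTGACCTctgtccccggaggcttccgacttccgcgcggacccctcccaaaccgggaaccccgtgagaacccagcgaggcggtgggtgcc
Calca, chr7:114636358-114636607, minus strand: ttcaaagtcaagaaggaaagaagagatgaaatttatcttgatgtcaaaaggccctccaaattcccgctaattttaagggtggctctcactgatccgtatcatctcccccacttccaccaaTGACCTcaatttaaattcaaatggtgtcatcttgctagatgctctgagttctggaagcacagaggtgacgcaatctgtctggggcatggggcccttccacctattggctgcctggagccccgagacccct
Areg, chr5:91139349-91139598, plus strand: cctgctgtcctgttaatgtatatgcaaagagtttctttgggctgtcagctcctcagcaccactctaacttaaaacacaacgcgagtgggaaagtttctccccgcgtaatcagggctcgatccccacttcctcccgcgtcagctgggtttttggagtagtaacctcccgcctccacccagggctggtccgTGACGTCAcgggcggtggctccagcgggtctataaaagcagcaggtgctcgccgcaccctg

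In all, 6 motifs were searched on both strands in these windows and in all 32851 windows of 250 bases in the same table. Windows were found for 9 of the 10 members, without Tbx3. For each member 1 window was used, that of the start site nearest the annotated 5′ end. Prlr and Cited1 had 3 start sites and Esr1 and Greb1 had 2, so matches at their other start sites are not counted for the members. The motif AGGTCA, which can form part of the longer estrogen response element, was found in Greb1 and Calca, beginning 88 and 130 bases before the start site, and in 14% of all windows. TGACGTCA was found in Areg, beginning 61 bases before the start site, and in 1.55% of all windows. The forkhead motif TGTTTAC was found in the window of Foxa1 alone among the members and in 3.17% of all windows. The palindromic estrogen response element, the progesterone response element and the STAT motif TTCNNNGAA matched in 0 members and in 0.0639%, 0.387% and 7.02% of all windows. These matches describe letters in the windows and not binding.

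Compared per length, the members spanned a wide range of levels. In RPKM (counts scaled to exon length and library size, computed here), Areg had a mean of 81.1 ± 34.9 RPKM in knockout libraries (SD, n = 4), against 93.3 ± 21.1 RPKM in wild type (SD, n = 2). Tbx3 had 14.4 ± 2.24 RPKM in knockout libraries, against 9.06 ± 0.158 RPKM in wild type. Calca had 1.37 ± 2.28 RPKM in knockout libraries, against 26.8 ± 34.7 RPKM in wild type, so it stood below Tbx3 by mean in knockout and above it in wild type. Over all 6 libraries the order was Areg, Tbx3, Calca, Cited1, Pgr, Prlr, Foxa1, Esr1, Greb1 and Tnfsf11. The means of Pgr, Prlr and Foxa1 over the 6 libraries (2.52, 2.5 and 2.37 RPKM) differed by less than the spread between libraries of each. Calca and Cited1 (9.83 and 8.16 RPKM) could not be ordered either, since Calca ran from 0.0677 to 51.3 RPKM. Areg lay above 94.6% of tested genes by mean level, Esr1 above 26.6% and Tnfsf11 above 2.42%.

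All 10 members passed the low-count filter, although Tnfsf11 had 10 or more counts in knockout 1 and knockout 3 alone. Knockout was compared with wild type in one fit over 13925 genes (edgeR quasi-likelihood test, Benjamini-Hochberg adjustment over all tested genes). None of the 10 members was called at an adjusted p under 0.05, where 0.0790% of tested genes (11 genes) were called, 0.0575% higher and 0.0215% lower. At an unadjusted p under 0.05, 3 members were higher (Esr1, Prlr and Tbx3) and 1 was lower (Calca), where 4.48% of tested genes were higher and 4.09% lower, 8.57% in all. The log2 fold changes were above 0 for 8 members and below 0 for Areg and Calca, with a median of 0.46, against -0.01 over all tested genes, of which 47.6% were above 0. The 8 include Tnfsf11, which passed the filter through knockout 1 and knockout 3 alone, so the filter favoured its direction. With the day code as a replicate block, 217 genes were called (1.56%), and again none of the members.

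Esr1, the gene of estrogen receptor alpha (chromosome 10, positions 4612046 to 5003761, plus strand, 9 exon blocks), had 7.77, 9.64, 6.65 and 8.07 CPM in knockout 1 to 4, against 6.14 and 4.00 CPM in wild type 1 and 2. Every knockout library was above both wild-type libraries. Its log2 fold change was 0.66 (SE 0.25, adjusted p = 0.502). Separation of this kind, with all 4 knockout libraries above both wild-type libraries, was seen in 2 of the 10 members and in 7.60% of tested genes.

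Tbx3, a T-box transcription factor needed for mammary development (chromosome 5, positions 119670669 to 119684601, plus strand, 8 exon blocks), was the other. It had 57.7, 82.9, 71.0 and 80.2 CPM in knockout 1 to 4, against 46.6 and 45.5 CPM in wild type 1 and 2. The wild-type libraries were close to each other and the knockout libraries spread above them. The log2 fold change was 0.66 (SE 0.16, adjusted p = 0.255, lowest among the members). DESeq2 called it higher (log2 fold change 0.68, adjusted p = 0.0202).

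Pgr encodes the progesterone receptor, itself an estrogen-induced gene (chromosome 9, positions 8899833 to 8968611, plus strand, 8 exon blocks). It had 29.5, 18.4, 12.6 and 12.0 CPM in knockout 1 to 4, against 25.6 and 6.12 CPM in wild type 1 and 2. The groups overlapped, and wild type 2 was the lowest library. Knockout minus wild type was 0.19 in log2 fold change (SE 0.55, adjusted p = 0.977), and it was -0.13 without knockout 1 and -0.50 without wild type 2.

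Prlr encodes the prolactin receptor, which signals through JAK2 and STAT5 (chromosome 15, positions 10177238 to 10349180, plus strand, 13 exon blocks). It had 50.2, 48.2, 26.2 and 36.2 CPM in knockout 1 to 4, against 30.0 and 10.1 CPM in wild type 1 and 2. Knockout 3 lay below wild type 1, so the groups overlapped, although each knockout library was above the wild type of its own day code. Knockout minus wild type was 1.0 in log2 units (SE 0.43, adjusted p = 0.577), and blocking by day code gave an adjusted p of 0.0547.

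Foxa1, a forkhead factor that opens chromatin for the estrogen receptor (chromosome 12, positions 57540632 to 57546121, minus strand, 2 exon blocks), had 9.78, 6.01, 7.19 and 9.01 CPM in knockout 1 to 4. Wild type 1 and 2 had 10.3 and 2.96 CPM and enclosed all the knockout values. In log2 fold change, knockout minus wild type was 0.26 (SE 0.44, adjusted p = 0.959) and turned to -0.36 without wild type 2.

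Greb1, an estrogen-induced cofactor of the estrogen receptor (chromosome 12, positions 16670615 to 16800886, minus strand, 35 exon blocks), had 20.3, 10.98, 4.37 and 6.85 CPM in knockout 1 to 4, against 9.12 and 1.0 CPM in wild type 1 and 2. The highest library exceeded the lowest by 20.3-fold. The fitted log2 fold change was 1.06 (SE 0.83, adjusted p = 0.855). Leaving out wild type 2 gave 0.23, and leaving out wild type 1 gave 3.43.

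Cited1, a transcriptional co-activator of luminal cells that takes part in estrogen receptor activity (chromosome X, positions 102247440 to 102251769, minus strand, 3 exon blocks), had 14.8, 4.94, 7.15 and 5.04 CPM in knockout 1 to 4. Wild type 1 and 2 had 11.3 and 4.31 CPM. The groups overlapped over most of their range. The log2 fold change was 0.03 (SE 0.52, adjusted p = 0.999), and it was -0.44 without knockout 1 and -0.50 without wild type 2.

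Areg, Tnfsf11 and Calca encode secreted signals. Areg, amphiregulin, is the ligand of the EGF receptor that carries the estrogen signal during ductal growth (chromosome 5, positions 91139615 to 91148432, plus strand, 6 exon blocks). It had 159.8, 71.0, 78.5 and 79.7 CPM in knockout 1 to 4, against 129.8 and 94.0 CPM in wild type 1 and 2. Knockout 1 stood above the other knockout libraries, which lay below both wild-type libraries. Amphiregulin's log2 fold change was -0.20 (SE 0.32, adjusted p = 0.955), and it was 0.07 without wild type 1.

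Tnfsf11 encodes RANKL, the ligand through which progesterone-responding cells act on their neighbours (chromosome 14, positions 78277446 to 78308043, minus strand, 5 exon blocks). It had 19, 8, 12 and 0 counts in knockout 1 to 4, against 4 and 5 counts in wild type 1 and 2. At this depth 0 counts in knockout 4 allow up to 0.118 CPM (3 counts), and wild type 1 was at 0.122 CPM. The log2 fold change was 1.10 with an SE of 1.03 (adjusted p = 0.906), so a difference was not detectable.

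Calca encodes calcitonin and the neuropeptide CGRP by alternative splicing, which the counts do not tell apart, and calcitonin is known as a progesterone-induced product of the mammary epithelium (chromosome 7, positions 114631478 to 114636357, minus strand, 6 exon blocks). Its counts were 226, 21, 3 and 3 in knockout 1 to 4, against 2512 and 85 in wild type 1 and 2. In CPM these were 7.10, 0.830, 0.101 and 0.118 in knockout libraries, against 76.4 and 3.27 in wild type. Wild type 1 held most of the reads, and knockout 1 lay above wild type 2. The log2 fold change was -4.25 (SE 1.40, adjusted p = 0.415), -0.64 without wild type 1 and -6.84 without knockout 1. With wild type 1 and 2 and knockout 1 and 2 alone, blocked by the number in the sample titles, Calca was called lower (log2 fold change -2.87, adjusted p = 0.0419), although those numbers did not pair the libraries.

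**Figure D1:**
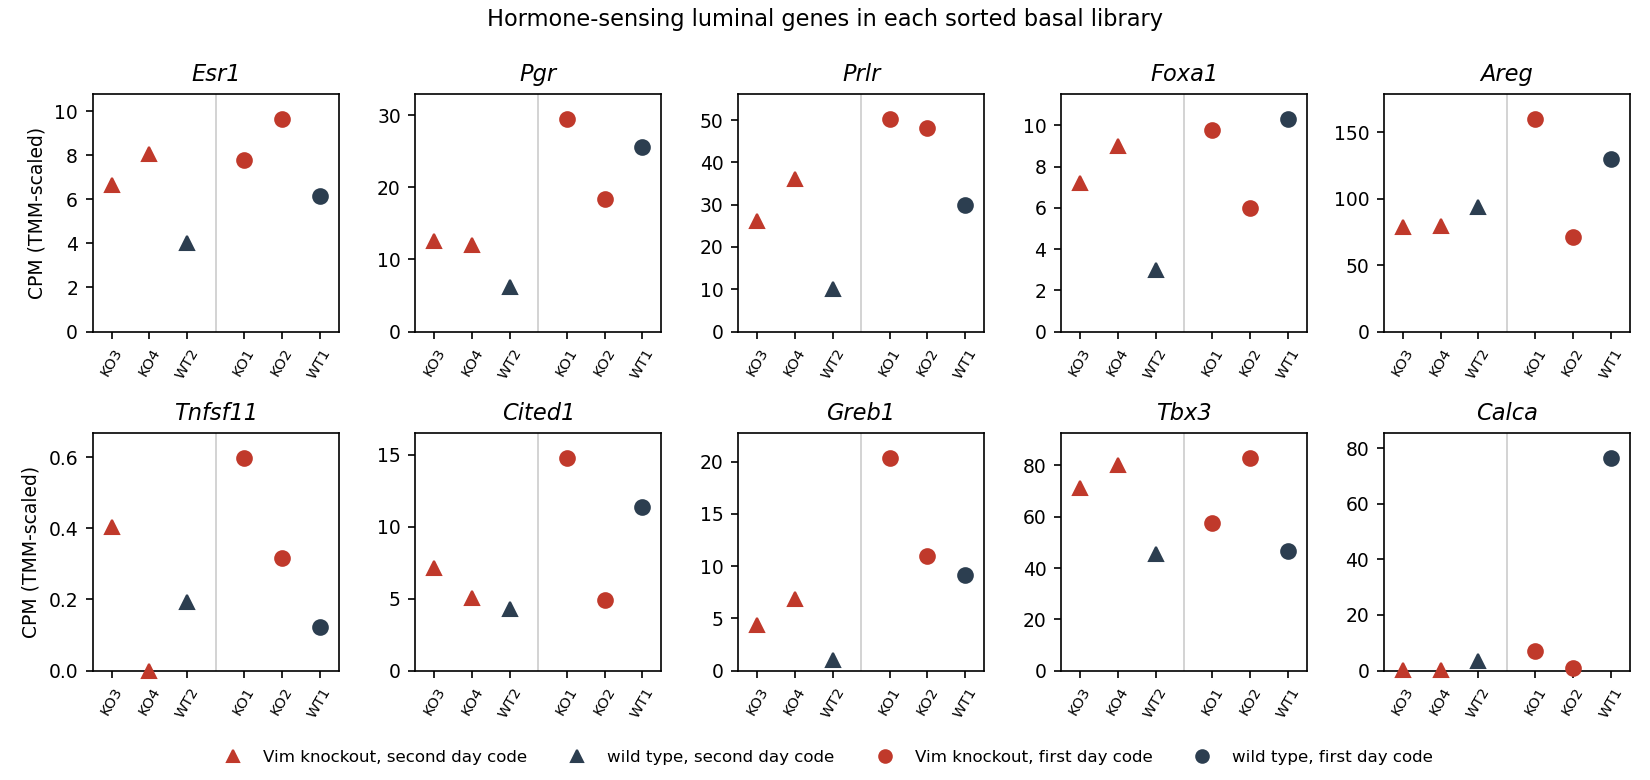
CPM of each of the 10 members (y axes start at 0 and differ between panels) in each library, with knockout in red left of wild type in dark blue, the second day code as triangles and the first as circles. Wild type 2 is the lowest of the 6 libraries in 7 panels, and Calca stands at 76.4 CPM in wild type 1 alone.

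Knockout was next set against wild type within each day code. With 1 wild-type library per code these differences have no test of their own. They were taken as log2 CPM (prior count 2) of each knockout library minus the wild-type library of its code. Within the second day code, 7 of 10 members were higher in both knockout libraries, where 37.4% of tested genes were, and 2 were lower in both, where 40.0% were. Within the first day code, 5 members were higher in both knockout libraries, where 31.0% of tested genes were, and 2 were lower in both, where 33.7% were. The 5 include Tnfsf11, with 19 and 8 counts in knockout 1 and 2, against 4 in wild type 1.

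Esr1, Prlr, Greb1 and Tbx3 (4 of 10 members) were above the wild type of their own day code in all 4 knockout libraries, which held for 15.6% of tested genes. For Greb1 the differences were 2.05 and 2.69 in the second day code and 1.15 and 0.27 in the first. For Prlr they were 1.37 and 1.84 in the second and 0.74 and 0.68 in the first. Both genes stood further above wild type in the second code than in the first. Calca was the 1 member below its own wild type in all 4 knockout libraries, which held for 16.6% of tested genes. Its differences were -4.29 and -4.15 in the second day code and -3.41 and -6.41 in the first. Those of the second code rest on 3 counts in each knockout library, and with a prior count of 0.5 in place of 2 their mean was -4.70 in place of -4.22.

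The knockout difference of Foxa1 went opposite ways in the day codes. Foxa1 was higher in both knockout libraries of the second code, by 1.26 and 1.58, and lower in both of the first, at -0.08 and -0.77. Its mean log2 CPM in knockout 3 and 4 minus that in knockout 1 and 2 was 0.07. Wild type 2 minus wild type 1 was -1.77, so the change of sign rests on the 1 wild-type library of each code. Pgr was higher by 1.03 and 0.97 in the second code and had differences of 0.20 and -0.48 in the first. The difference between the day codes was tested as an interaction of genotype and day code (edgeR, 2 residual degrees of freedom). For Foxa1 it was 1.83 (SE 0.49, adjusted p = 0.998) and for Greb1 1.69 (SE 0.68, adjusted p = 0.998). None of the 10 members and 0 of 13925 genes passed that test, while 586 genes (4.21%) had an unadjusted p under 0.05, 2.79% of tested genes in the upward direction, as did 4 members (Pgr, Prlr, Foxa1 and Greb1). DESeq2 called 11 genes and none of the members.

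The interaction depended on single libraries. With a knockout library left out, 1 pair of knockout libraries of the same day code supplies all of the spread, so the following calls rest on that pair and on the spread shared across genes. Without knockout 1 it was called for Foxa1 (2.22, adjusted p = 0.00672), Pgr (1.49, adjusted p = 0.0117), Greb1 (2.21, adjusted p = 0.0355) and Areg (0.62, adjusted p = 0.0467). Without knockout 2 it was called for Foxa1 (1.52, adjusted p = 0.0409) and, with the opposite sign, for Areg (-0.55, adjusted p = 0.0497). In those fits 203 and 371 genes were called.

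**Figure D2:**
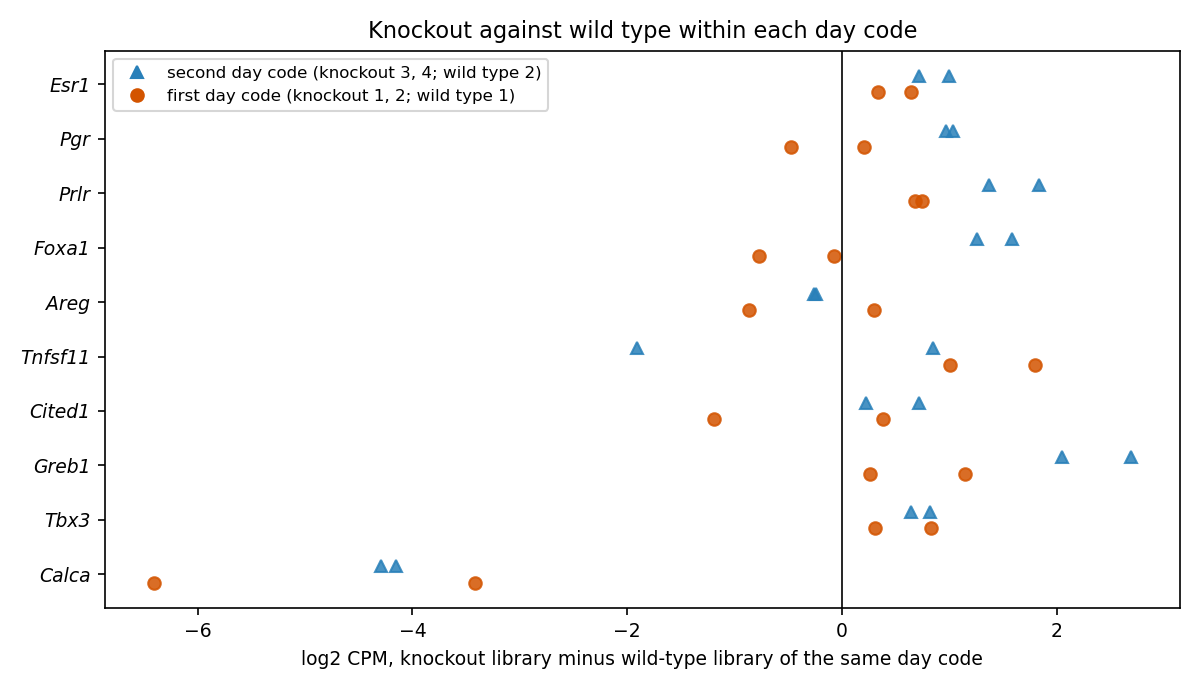
Log2 CPM of each knockout library minus the wild-type library of the same day code (x axis) for each member (y axis), with the second day code as blue triangles above the first as orange circles. Esr1, Prlr, Greb1 and Tbx3 have all 4 points right of 0, Calca has all 4 left of it, and Foxa1 has the day codes on opposite sides.

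Several members differed between the day codes. In a fit with genotype and day code, 3 of 10 members were lower in the second code than in the first, where 3.04% of tested genes were called lower and 6.43% were called in either direction. In log2 units, Greb1 fell by 1.93 (SE 0.41) with an adjusted p of 0.0451, Pgr fell by 1.31 (SE 0.27) with an adjusted p of 0.0318 and Prlr fell by 0.94 (SE 0.20) with an adjusted p of 0.0336. No member was called higher, where 3.39% of tested genes were. Over the 10 members the median of this log2 fold change was -0.80, against -0.02 over all tested genes, and 1 member was above 0, where 47.4% of tested genes were.

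Calca had the largest estimate among the members, at -4.70, and was not called (SE 0.92, adjusted p = 0.0538). Cited1 was at -0.93 (SE 0.41, adjusted p = 0.238), Foxa1 at -0.54 (SE 0.40, adjusted p = 0.474) and Areg at -0.52 (SE 0.30, adjusted p = 0.366). Esr1 was at -0.36 (SE 0.18, adjusted p = 0.273), and Tbx3 was at 0.06 (SE 0.14, adjusted p = 0.833). So the estrogen receptor gene had a smaller estimate than its known targets Pgr and Greb1, and that gap was not tested. All 3 libraries of the second code lay below all 3 of the first for Pgr and Greb1, which held for 13.5% of tested genes.

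DESeq2 and RLE size factors each called Pgr, Prlr and Greb1 lower as well (DESeq2 adjusted p = 1.28e-05, 1.41e-04 and 1.99e-06). When single libraries were left out, most of these calls were lost. Pgr and Greb1 kept theirs when knockout 2 was left out and Prlr when knockout 4 was left out. Otherwise the adjusted p of Pgr was 0.0802 without knockout 1, 0.0646 without knockout 3, 0.106 without knockout 4, 0.134 without wild type 1 and 0.128 without wild type 2. That of Prlr was 0.0595 without knockout 1, 0.0515 without knockout 2, 0.0960 without knockout 3, 0.148 without wild type 1 and 0.142 without wild type 2. That of Greb1 was 0.112 without knockout 1, 0.176 without knockout 3, 0.0568 without knockout 4 and 0.127 without either wild type. Over all alternatives the log2 fold change lay between -1.59 and -0.96 for Pgr, between -1.18 and -0.66 for Prlr and between -2.32 and -1.49 for Greb1. Other members gained a call. Areg (-0.78, adjusted p = 0.0109) and Cited1 (-1.32, adjusted p = 0.00875) were called lower without knockout 2, and Calca was called lower without knockout 1 (-4.33, adjusted p = 6.02e-05), without knockout 2 (-4.89, adjusted p = 3.28e-04) and by DESeq2 (-4.93, adjusted p = 4.59e-05).

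Wild type 2 was the lowest of the 6 libraries for 7 of the 10 members, where it was the lowest for 19.8% of tested genes. The exceptions were Areg (lowest in knockout 2), Tnfsf11 (lowest in knockout 4) and Calca (lowest in knockout 3). The same 7 members were those higher in both knockout libraries of the second day code. A gene lowest in wild type 2 must be higher there, so both counts rest on wild type 2. Wild type 2 stood more than 2-fold below wild type 1 for 6 members, where 7.63% of tested genes did, and below it at all for 9, where 51.9% did. Its median difference from wild type 1 over the members was -1.47 in log2 CPM, against -0.02 over all tested genes. Knockout 3 and 4 differed from knockout 1 and 2 by a median of -0.59 over the members, against -0.01 over all tested genes. Knockout 1 was the highest library for 6 members, where it was the highest for 13.2% of tested genes. The range over the 6 libraries had a median of 2.02 in log2 CPM over the members, against 0.63 over all tested genes, and exceeded 1 for 9 members, where it did for 28.0% of tested genes. The tested genes were not matched to the members by level. Pgr, Prlr, Foxa1, Esr1, Greb1 and Tnfsf11 lay above 2.42% to 32.9% of tested genes by mean level. The range of Tnfsf11 rests on 0 to 19 counts, and the low end of that of Calca on 3 counts. All second-code libraries above all first-code libraries, the opposite of the pattern of Pgr and Greb1, held for 0 members, where it held for 12.6% of tested genes, and all knockout libraries below both wild-type libraries held for 0 members, where it held for 8.57%.

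**Figure D3:**
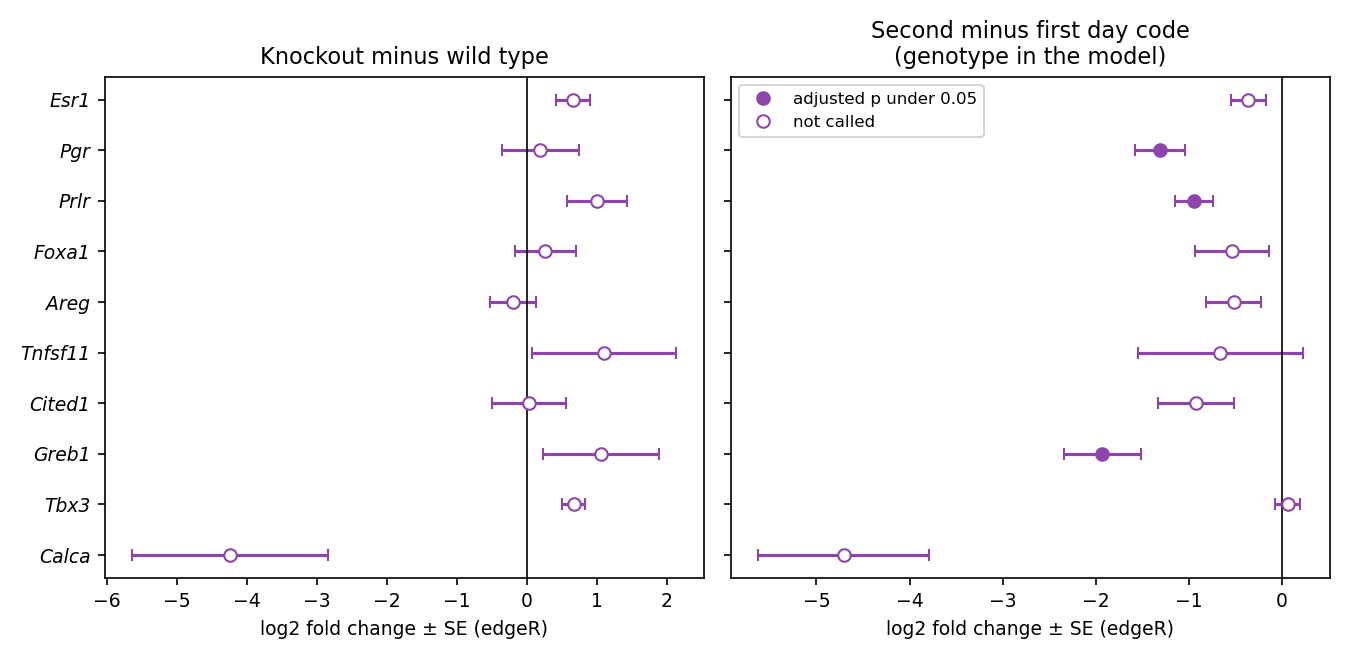
Log2 fold change (x axis, ± SE, edgeR) of each member for knockout minus wild type (left) and second minus first day code (right, with genotype in the model), with filled points for an adjusted p under 0.05. No point is filled on the left, and Pgr, Prlr and Greb1 are filled on the right.

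For the 9 members whose log2 CPM range exceeded 1 (all but Tbx3), the genes closest in pattern were sought by the root mean square difference of log2 CPM deviations over the 6 libraries, among genes whose log2 CPM averaged 1 or more. The nearest to Greb1 was Krt4, a keratin gene, at a distance of 0.21, followed by Tmem86a at 0.27. Krt4 had 29.5, 17.7, 9.47 and 10.9 CPM in knockout 1 to 4, against 17.0 and 1.42 CPM in wild type 1 and 2. The nearest to Pgr were Nup210 (0.14) and Capn5 (0.18), to Prlr Hist1h1c (0.13), to Foxa1 Arg1 (0.19) and to Esr1 Sgsh (0.06). The nearest to Cited1 was Kif20a (0.14), and the nearest to Areg were Tacc3 (0.09), Tmem106c (0.12) and Slc2a4 (0.13). For Calca the nearest among those genes, the casein gene Csn1s1, was at a distance of 2.12, and genes of lower mean level were not searched. These distances over 6 libraries are a description.

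Other genes known from hormone-sensing luminal cells were taken from a list of 18, of which 17 were tested. None was called for genotype, 10 were above 0 and 7 below, and the median log2 fold change was 0.10. Ly6a, the gene of the surface antigen Sca-1, had 7.45, 20.3, 16.7 and 11.8 CPM in knockout 1 to 4, against 5.23 and 4.08 CPM in wild type 1 and 2 (log2 fold change 1.59, SE 0.39, adjusted p = 0.269). All knockout libraries lay above both wild-type libraries in 4 of the 17 and below both in 2, where 7.60% and 8.57% of tested genes did. The 2 lower were Trps1 (67.8 to 76.5 CPM in knockout, against 93.8 and 82.3) and Xbp1 (118 to 121 CPM, against 128 and 127). Wild type 2 was the lowest library for 8 of the 17, where it was the lowest for 19.8% of tested genes. Between the day codes, Krt19, a luminal keratin gene, fell by 0.71 in the second code (SE 0.17, adjusted p = 0.0494), and it was the 1 gene called there.

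Among 20 partners and co-regulators of the steroid receptors, 18 were tested and none was called for genotype. Of the 18, 15 were above 0, where 47.6% of tested genes were, and the median was 0.10. Between the day codes, Nrip1, an estrogen-responsive co-repressor, rose by 0.59 in the second code (adjusted p = 0.0164) and Pgrmc1, which encodes a membrane heme-binding protein, by 0.38 (adjusted p = 0.0397). Tfap2c, an AP-2 transcription factor gene, fell by 0.54 (adjusted p = 0.0451) and Esrra, an orphan receptor related to the estrogen receptor, by 0.66 (adjusted p = 0.0295).

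A list of estrogen and progesterone targets held 24 genes, of which Krt19, Myb, Stc2, Wnt4 and Xbp1 were also among the hormone-sensing genes above and Nrip1 and Fkbp5 among the receptor partners. Of these targets 21 were tested and none was called for genotype. Of the 21, 16 were above 0, where 47.6% of tested genes were, and the median was 0.26. With the replicate block 2 rose. Wnt7b, a Wnt ligand gene, had 16.1, 17.0, 14.1 and 15.1 CPM in knockout 1 to 4, against 8.91 and 5.85 CPM in wild type 1 and 2 (log2 fold change 1.07, adjusted p = 0.176, or 0.0136 with the replicate block). Cxcl12, a chemokine gene, had 437, 457, 860 and 783 CPM in knockout 1 to 4, against 177 and 442 CPM in wild type 1 and 2 (log2 fold change 1.04, adjusted p = 0.544, or 0.00378 with the block). Between the day codes these targets did not move one way. Cxcl12, Ret and Nrip1 rose in the second code, by 1.02, 0.84 and 0.59 (adjusted p = 0.00283, 0.00769 and 0.0164), while Irs1 and Krt19 fell by 0.92 and 0.71 (adjusted p = 0.0161 and 0.0494).

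The prolactin receptor signals through JAK2 and STAT5, and all 12 genes listed for that pathway were tested. None was called for genotype, 6 were above 0 and 6 below, and the median was 0.02. Cish, a feedback inhibitor induced by STAT5, had 22.9 CPM in wild type 2, its lowest library, and a log2 fold change of 0.48 (adjusted p = 0.658). Between the day codes, Jak2 rose by 0.66 (adjusted p = 0.00656) and the growth hormone receptor gene Ghr by 0.47 (adjusted p = 0.0493) in the second code, and Stat5b fell by 0.91 (adjusted p = 0.00601).

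The receptors and partners of the secreted signals formed a list of 18, of which 17 were tested and none was called for genotype, with a median of 0.01. Egfr, the receptor of amphiregulin, had 268 to 322 CPM in knockout libraries, against 228 and 320 CPM in wild type (log2 fold change 0.11, adjusted p = 0.953). Tnfrsf11b, which encodes the RANKL decoy receptor osteoprotegerin, had 8.14, 6.12, 8.26 and 5.27 CPM in knockout 1 to 4, against 12.9 and 12.0 CPM in wild type 1 and 2 (log2 fold change -0.84, SE 0.22, adjusted p = 0.274). Calcrl, which encodes the CGRP receptor subunit and is also strong in endothelium, had 0.786 to 1.26 CPM in knockout libraries, against 2.59 and 2.46 CPM in wild type (log2 fold change -1.31, adjusted p = 0.236). Calcr, the calcitonin receptor gene, had 0 counts in every library. Between the day codes, Tnfrsf11a, which encodes the RANKL receptor, fell by 0.53 in the second code (adjusted p = 0.0320) and Ramp3, a partner gene of Calcrl, rose by 0.93 (adjusted p = 0.0219).

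Summed levels of markers of other cell types were set beside those of the members. The 12 pan-luminal markers summed to 2773 to 2969 CPM in knockout libraries, against 2725 and 2720 CPM in wild type 1 and 2. The 10 members summed to 358, 253, 214 and 237 CPM in knockout 1 to 4, against 345 and 171 CPM in wild type 1 and 2. Calca made up 22.1% of this sum in wild type 1 and 1.91% in wild type 2, against 0.047% to 1.99% in knockout libraries. Areg made up 37.6% and 54.8% in wild type 1 and 2, against 28.0% to 44.7% in knockout libraries. Gene by gene, 6 of the 12 pan-luminal markers were lowest in wild type 2, where 19.8% of tested genes were. With those 6 included, 9 were higher in both knockout libraries of the second day code, where 37.4% were. None of the 12 was called for genotype (median 0.14), and Krt7 and Krt19 fell in the second day code, by 0.63 and 0.71 (adjusted p = 0.0184 and 0.0494). The 14 luminal progenitor markers summed to 1674 to 2083 CPM in knockout libraries, against 2181 and 1916 CPM, with a median of -0.32. None was called for genotype. With the replicate block Ltf rose (log2 fold change 0.82, adjusted p = 0.0370) and Rspo1 fell (-1.68, adjusted p = 0.0286). That fit called 156 of 13925 tested genes higher and 61 lower.

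Milk protein and endothelial genes had their highest sums in wild type 1, the library that carried most Calca reads. Luminal progenitor and pericyte markers did too, at 2181 and 57.1 CPM. Knockout 1, the next highest in Calca at 7.10 CPM, had the lowest milk protein and endothelial sums of all libraries (236 and 79.9 CPM). The 10 milk protein genes summed to 236 to 409 CPM in knockout libraries, against 867 and 380 CPM in wild type 1 and 2. Most of each sum was Trf, with 198 to 349 CPM in knockout libraries, against 737 and 326 CPM in wild type 1 and 2. Of the 8 tested, 3 (Csn1s1, Csn1s2a and Csn2) had all knockout libraries below both wild-type libraries, where 8.57% of tested genes did, and 0 had all above. The 16 endothelial markers summed to 79.9 to 109.7 CPM in knockout libraries, against 343 and 148 CPM in wild type 1 and 2. The median log2 fold change was -1.26 over the 8 milk protein genes tested, of which 7 were below 0 and Csn1s2a was called lower (-5.41, adjusted p = 0.0218). With the replicate block Csn2 was called lower too (-6.19, adjusted p = 0.0212, or 0.128 without the block). Csn1s2a had 8, 1, 3 and 2 counts in knockout 1 to 4, against 260 and 75 in wild type 1 and 2. Csn2 had 19, 0, 5 and 0 counts, against 888 and 132. Csn1s2a reached the minimum count of 10 in the wild-type libraries alone, and Csn2 there and in knockout 1. So the low-count filter favoured the direction of both, in these calls and in the count of 3 above. The median was -1.82 over the endothelial list, of which 16 of 16 were below 0 and Sele was called lower (-1.64, adjusted p = 0.0218). Among all tested genes, 7299 of 13925 were below 0. None of the 16 endothelial genes was at 0 in any library. Pecam1, the gene of CD31, had 3.46, 7.35, 6.48 and 4.41 CPM in knockout 1 to 4, against 30.4 and 12.1 CPM in wild type 1 and 2. The part of these cells in the values of Calca was not tested.

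Basal markers summed to 21563 to 25363 CPM in knockout libraries, against 24069 and 25059 CPM in wild type, with none of 14 called for genotype and a median of -0.07. The oxytocin receptor gene Oxtr, a marker of contractile basal cells, fell by 1.43 in the second day code (adjusted p = 3.05e-04). Its levels were 68.5, 60.6 and 50.1 CPM in knockout 3, knockout 4 and wild type 2, against 178, 171 and 135 CPM in knockout 1, knockout 2 and wild type 1. Fibroblast markers (12 tested, median -0.27), pericyte markers (7 tested, median -0.43), leukocyte markers (7 tested, median -0.06) and neural and neuroendocrine markers (6 tested, median -0.40) had no called member for genotype or day code. Ptprc, the CD45 gene, had at most 0.456 CPM in any library, but the leukocyte list as a whole was not near 0. Its markers summed to 115 to 182 CPM in knockout libraries, against 178 and 148 CPM in wild type 1 and 2. Most of each sum was Cd74.

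**Figure D4:**
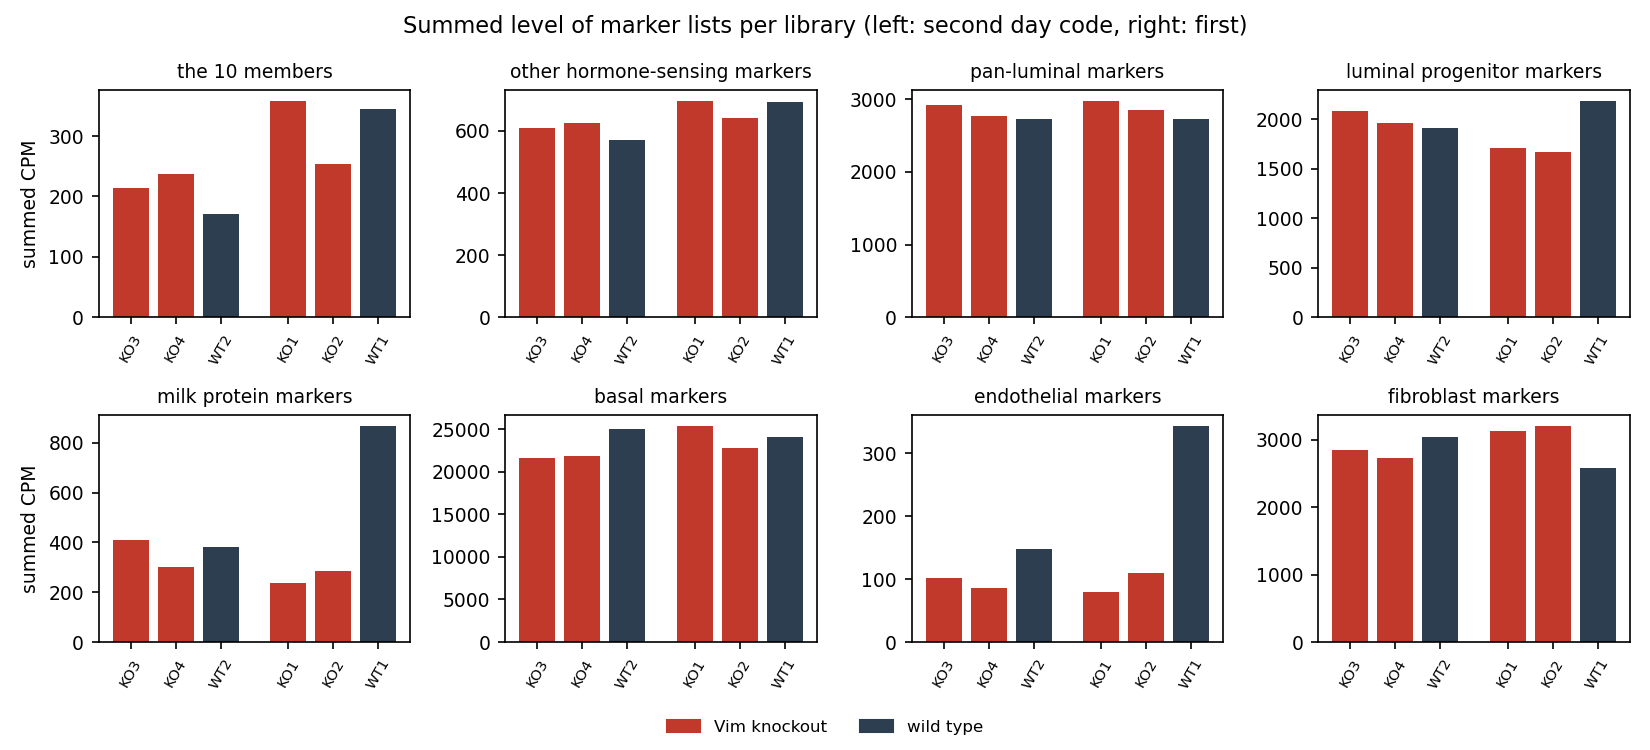
Summed CPM (y axes start at 0) of the 10 members and of 7 marker lists in each library, with knockout in red left of wild type in dark blue and the second day code left of the first. The sum of the members runs from 171 CPM in wild type 2 to 358 CPM in knockout 1, and the pan-luminal sum runs from 2720 to 2969 CPM.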

How the data were processed

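Raw read counts per gene were deposited by the authors for 6 libraries, made with featureCounts 1.5.1 over exons of the UCSC mm10 annotation in the reverse-stranded setting (option 2), per the file headers. STAR 2.5.2b and bcl2fastq 2.17 are named in the submitters' processing notes. No option to count multi-mapped reads was set, per the file headers, and no exon of a member overlapped another gene. Counts were fitted with edgeR 4.0.16 in R 4.3.3 (filterByExpr with a minimum count of 10, TMM, robust glmQLFit and glmQLFTest, 2-sided). 13925 genes were tested and 9412 set aside. Genotype was the only term of the comparison of knockout with wild type. Log2 CPM used a prior count of 2. Nothing says whether the pools came from separate litters, so p-values measure the spread between these libraries, and floors cover counting error only.

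The day code comes from the file names, since the labels assign no library to an experiment. After each genotype mean was subtracted, knockout 1 to 4 correlated with the wild type of their own code (r = 0.32, 0.29, 0.25 and 0.41 across 13925 genes, which are not independent), so the code was taken to pair them and was used as a replicate block. With 2 wild-type libraries, each r with the other wild type has the same size and the opposite sign. The 4 knockout deviations of a gene also sum to 0, so the 4 values of r are not 4 independent agreements. The numbers of the sample titles did not pair them (r = 0.32 and -0.29). The members and lists were chosen with earlier results of these data known. Named genes were the members, up to 4 genes of lowest p per list, called genes, fixed markers and the 3 nearest patterns of each member. Genes named for the day code, and Egfr and Calcr, were chosen after their values were seen. DESeq2 1.42.0, RLE size factors, no low-count filter, a prior count of 0.5, fits with and without the replicate blocks and leaving out each library were the alternatives. The fits were tested on simulated data.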

Additional observations from a re-analysis of the deposited data

Results flagged for a closer look

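In 2 of the 10 members 1 knockout library stood apart from the other 3, with a gap to the nearest library that took a larger share of the group's range than Dixon's critical value for 4 samples. Areg was at 159.8 CPM in knockout 1 (gap share 0.903), and Calca was at 7.10 CPM in knockout 1 (gap share 0.896). Chance alone gives such a gap in about 1 of 20 groups, and 10 groups were examined.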

How the results depend on the processing

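The count of genes called for genotype was 11. It was 261 with DESeq2 and 217 with the replicate block of the day code, which called none of the 10 members. It ran from 3 to 15 when 1 library was left out, and the replicate block of the title numbers gave 12. The count for the day code was 895. It was 1478 with DESeq2, 176 with no replicate block, and ran from 38 to 1838 when 1 library was left out. The count for the interaction was 0. It was 11 with DESeq2, 7 without a low-count filter, and ran from 3 to 371 when 1 knockout library was left out, and without a wild-type library it could not be fitted. The cause of these shifts was not tested.

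Leaving out 1 library turned the sign of some members, with these ranges of log2 fold change. For genotype, Pgr ran from -0.50 (without wild type 2, and -0.13 without knockout 1) to 1.59, Foxa1 from -0.36 (without wild type 2) to 1.45, Cited1 from -0.50 (without wild type 2, and -0.44 without knockout 1) to 0.91, and Areg from -0.53 to 0.069 (without wild type 1). For the day code, Tbx3 ran from -0.094 (without knockout 1, and -0.0055 without knockout 4) to 0.21, Tnfsf11 from -1.12 to 0.062 (without knockout 4) and Foxa1 from -0.90 to 0.030 (without wild type 2, and likewise without wild type 1). For the interaction, Areg ran from -0.55 to 0.62, Tbx3 from -0.10 to 0.43 and Calca from -1.43 to 1.66, each turning without knockout 1. Without the low-count filter Pgr and Greb1 were not called for the day code (adjusted p = 0.0551 and 0.141), and with no replicate block none of Pgr, Greb1 and Prlr was (0.0824, 0.201 and 0.354). Where 1 wild-type library was left, it was assumed to vary like the knockout libraries. Of 269 member fold changes under the alternatives, 223 kept their sign and their side of the threshold. Most of these were never near a call. The called day code results of Pgr, Prlr and Greb1 stayed called in 3, 4 and 3 of 10 alternatives.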
